A study of Mus musculus with 10 samples.

Results

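The enzymes described here write or erase methyl and acetyl groups on histones and related proteins. They are the genes of mouse gastrocnemius muscle (GAS) whose symbols begin with Kat, Kdm, Kmt, Prmt or Setd followed by a digit. The rule found 50 genes among the 21098 in the table, namely 8 KAT, 18 KDM, 8 KMT, 8 PRMT and 8 SETD genes, and used no measured value. The 10 RNA libraries fall into 2 groups, 5 from mice given an anti-miR-22 antisense oligonucleotide (the ASO group, RES-010 in the labels) and 5 from saline controls (CTRL). All were wild-type male C57BL/6J mice (C57BL/6JBomTac in the study's methods) with diet-induced obesity (DIO), given the high fat diet D12492i from 9 weeks of age and for 9 weeks before treatment. Weekly subcutaneous injections of 10 mg/kg ASO, or of matched volumes of saline, went on for 14 weeks, and the age is given as 30 weeks, which is less than these periods add up to. The model is limited to obese males, and each library is bulk muscle, in which fewer cells of a type and less RNA per cell cannot be told apart.

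KAT enzymes are lysine acetyltransferases, which loosen chromatin and mark active genes. KMT and many SETD enzymes are lysine methyltransferases, whose marks favour or oppose transcription depending on the residue, and KDM enzymes remove those marks with a flavin or with iron and 2-oxoglutarate. PRMT enzymes methylate arginine, on histones and on many RNA-binding proteins. In skeletal muscle these families are known for their part in opening and closing the genes of the myogenic programme, with KDM6 enzymes and polycomb proteins acting on the same repressive methyl mark. A microRNA acts on messengers that pair with its seed, usually in the 3′UTR, so messengers with a seed match are the direct candidates of an oligonucleotide that binds miR-22.

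The sequences that link this treatment to the members are the microRNA and the matching letters in the members' 3′UTRs. The mature miR-22-3p is shown first, from the RefSeq microRNA table on GRCm38.p6, with the seed (bases 2 to 8) in capitals. The next lines give 30 bases of GRCm39 around the 7 letters GGCAGCT, in capitals and read on the gene's strand, for the members past the threshold that hold them and for the only members whose match fell in a counted segment, Kat6b and Prmt6.
miR-22-3p: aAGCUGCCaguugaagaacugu
Kat7, first site, chr11:95165733-95165762, minus strand: gccagtctggtgtagGGCAGCTctactttc
Kat7, second site, chr11:95165411-95165440, minus strand: aacctgctatcttggGGCAGCTtttgatgt
Kdm6b, chr11:69290515-69290544, minus strand: cccttccaccctattGGCAGCTcccctcac
Kat6b, chr14:21721652-21721681, plus strand: gctcctttggggggaGGCAGCTttctgttt
Prmt6, chr3:110153727-110153756, minus strand: gagcaaggatggaaaGGCAGCTgtcatcct

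What was counted for each gene bears on every value that follows. The deposited counts are read pairs on the last bases of each annotated transcript, in segments of at most 500 bp, and a gene's level here is the sum over its segments. Bases that several segments share gave almost no counts, so a gene with 0 counts is not shown to be silent. Library totals on the counted segments were 1606909 to 2116720 counts in CTRL and 2239186 to 2632560 in ASO. Every ASO library thus held more such counts than every CTRL library, and these totals are not numbers of sequenced reads. The counts also lay closer to the 3′ end in ASO. An index of distal over upstream counts, the median log2 ratio over 1278 genes that are not members, was 0.33, 0.44, -0.076, -0.29 and -0.58 in CTRL and 1.18, 1.23, 1.77, 1.48 and 1.52 in ASO. The groups did not overlap, and the difference of 1.47 had an exact permutation p of 0.00794, two-sided, the smallest that permuting the 10 labels can give. With every library thinned to the smallest total, the members called below kept direction and call, and the part of the library totals was not tested otherwise. The part of this index in the changes of single members was not tested, and these values are given beside the results they move with.

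Of the 50 members, 33 had enough counts to be tested among 7813 genes. By edgeR's quasi-likelihood test (Benjamini-Hochberg adjusted p under 0.05), Kat8, Kdm6b and Setd6 were higher in ASO, and Kat7, Kat14, Kdm6a, Kmt2d, Kmt2e, Kmt5b and Setd2 were lower. These 3 higher and 7 lower members stand against 11.8% of all tested genes called higher and 17.4% called lower (29.2% in either direction), so that neither share was far from the background. The median log2 fold change of the tested members was -0.11, beside -0.03 for all tested genes. By family, 1 of 4 tested KAT genes was higher and 2 were lower. The 13 tested KDM genes gave 1 in each direction, as did the 5 tested SETD genes. Of the 6 tested KMT genes 3 were lower, and of the 5 tested PRMT genes none passed. Direction went with where in the gene the counts lay, and the segments are therefore also described by position.

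**Figure D1:**
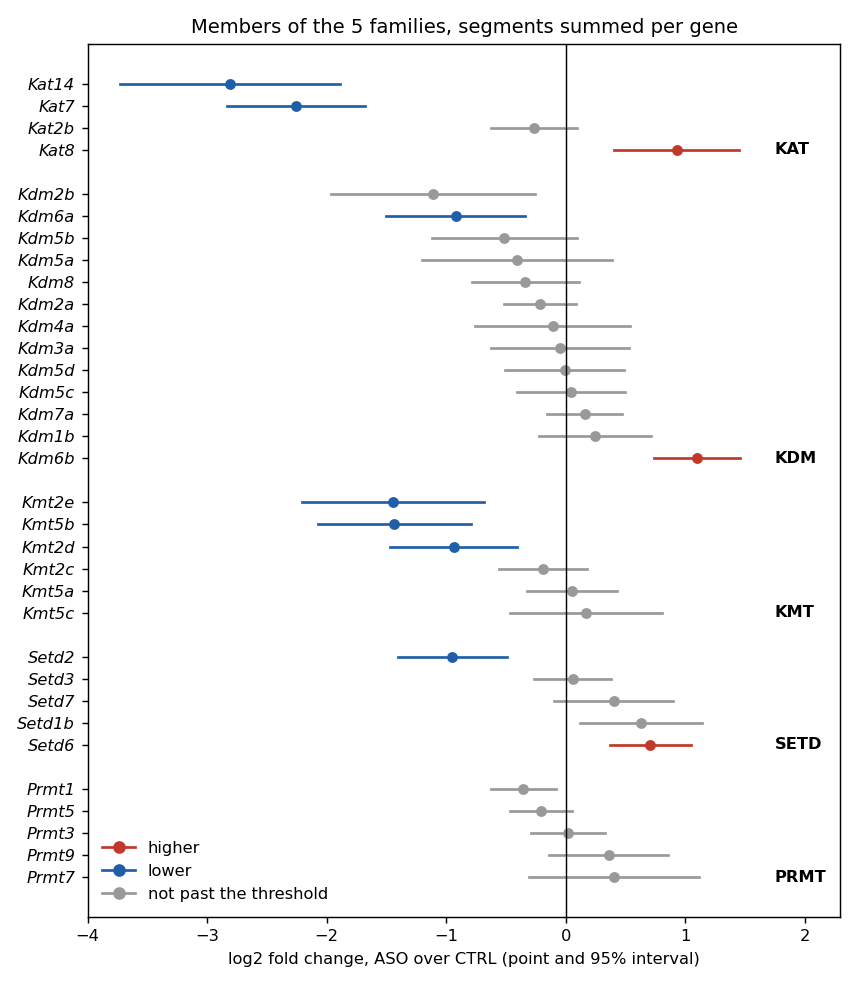
Log2 fold change of the 33 tested members, ASO over CTRL, with the segments of each gene summed. Points are edgeR estimates and lines their 95% intervals, grouped by family, with red for higher, blue for lower and grey for members that did not pass the adjusted threshold. Kat14 at -2.81 and Kdm6b at 1.10 are the lowest and highest estimates.

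Among the acetyltransferases, Kat7 and Kat14 fell and Kat8 rose. Kat7, also known as HBO1, acetylates histones H3 and H4 and is linked to replication origins. Kat7 levels were 33.5, 44.3, 46.9, 50.7 and 53.4 CPM in CTRL and 8.21, 16.6, 5.08, 8.77 and 8.96 CPM in ASO, where CPM are edgeR's normalized counts on the TMM scale. Every ASO library was under every CTRL library, and the log2 fold change was -2.25 (SE 0.27, adjusted p = 0.000181). Kat14 is a subunit of the ATAC acetyltransferase complex. Kat14 levels were 8.96, 12.1, 19.3, 17.1 and 23.03 CPM in CTRL and 3.86, 2.12, 0.423, 1.67 and 3.30 CPM in ASO, without overlap between the groups. The log2 fold change of Kat14 was -2.81 (SE 0.43, adjusted p = 0.000718), and it rests on few reads, since the ASO libraries held 8, 5, 1, 4 and 7 counts. Kat8, also known as MOF, acetylates histone H4 in the MSL and NSL complexes. Kat8 levels were 21.2, 17.7, 9.88, 14.8 and 21.9 CPM in CTRL and 28.5, 32.3, 43.1, 22.5 and 36.8 CPM in ASO. The groups did not overlap, although the highest CTRL and the lowest ASO library lay close together, and the log2 fold change was 0.93 (SE 0.24, adjusted p = 0.0125). Its only counted segment, of 186 bp, overlaps 122 bp of a segment of Prss8 on the opposite strand, and no strand option is stated for the counting. Kat2b, the acetyltransferase PCAF, had the most counts of the 4 and did not pass the threshold. Its levels were 199, 208, 158, 217 and 178 CPM in CTRL and 161, 193, 106, 162 and 177 CPM in ASO, and the log2 difference was -0.26 (95% interval -0.62 to 0.10, adjusted p = 0.254).

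The demethylases that passed were both of the KDM6 branch, and they changed in opposite directions. Kdm6b (JMJD3) and Kdm6a (UTX) both remove the repressive methyl mark that polycomb complexes place on histone H3. Kdm6b levels were 33.5, 34.5, 45.5, 42.5 and 50.6 CPM in CTRL and 69.05, 87.1, 112, 83.5 and 90.5 CPM in ASO. Every ASO library exceeded every CTRL library, and the log2 fold change was 1.10 (SE 0.17, adjusted p = 0.000718). Kdm6a levels were 16.5, 15.4, 23.7, 20.7 and 22.5 CPM in CTRL and 11.1, 12.7, 4.65, 10.9 and 12.7 CPM in ASO. The groups did not overlap here either, with ASO replicate 3 far under the rest of its group, and the log2 fold change was -0.92 (SE 0.27, adjusted p = 0.0219). All counted bases of Kdm6b lay at the annotated end of the gene, at chr11:69289334-69289833 in the last exon. Those of Kdm6a began 1054 bp or more upstream of the annotated end.

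The other 11 tested demethylases did not pass. Kdm2a, which removes methyl groups from a lysine of histone H3 at CpG islands, had the most counts of the family. Kdm2a levels were 109, 116, 116, 114 and 156 CPM in CTRL and 97.5, 123, 108, 91.01 and 106 CPM in ASO, with CTRL replicate 5 above the rest, and the log2 difference was -0.22 (95% interval -0.52 to 0.08, adjusted p = 0.259). Kdm7a, a demethylase with a PHD finger, was even across the groups, at 47.2, 52.7, 40.02, 42.5 and 37.1 CPM in CTRL and 45.4, 52.3, 57.5, 41.3 and 49.04 CPM in ASO. Its log2 difference was 0.16 (95% interval -0.15 to 0.47, adjusted p = 0.427). Kdm2b, a subunit of a polycomb complex at CpG islands, stood just outside the threshold with -1.11 (95% interval -1.97 to -0.25, adjusted p = 0.0511). Its levels ranged from 6.53 to 22.4 CPM in CTRL and from 2.97 to 7.55 CPM in ASO, so that the groups overlapped. The Kdm5 enzymes, which erase the activating methyl mark of histone H3, showed log2 differences of -0.41 for Kdm5a, -0.51 for Kdm5b, 0.04 for the X-linked Kdm5c and -0.01 for the Y-linked Kdm5d. The remaining differences were 0.25 for the flavin enzyme Kdm1b, -0.05 for Kdm3a, -0.11 for Kdm4a and -0.34 for Kdm8, all within 95% intervals that included 0.

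Of the lysine methyltransferases, Kmt2e, Kmt2d, Kmt5b and Setd2 fell and Setd6 rose. Kmt2d (MLL4) places an activating mark at enhancers, and Kmt2e (MLL5) is a relative with little known activity on histones. Kmt2e levels were 15.1, 13.5, 22.7, 26.6 and 52.2 CPM in CTRL and 9.66, 7.65, 11.4, 10.4 and 8.02 CPM in ASO. The ASO libraries lay close together under a widely spread CTRL group, and the log2 fold change was -1.45 (SE 0.35, adjusted p = 0.00902). Kmt2d levels were 28.3, 33.6, 35.6, 51.3 and 58.4 CPM in CTRL and 30.4, 20.4, 14.4, 18.8 and 24.05 CPM in ASO. It was the only called member whose groups overlapped, and its log2 fold change was -0.94 (SE 0.25, adjusted p = 0.0132). Most Kmt2d counts lay on a segment 2632 bp upstream of the annotated end, which was at -0.87 (SE 0.27). The segment 3 bp from that end held 4, 8, 0, 2 and 3 counts in CTRL and 13, 6, 12, 7 and 2 in ASO, too few to be tested. Kmt5b adds further methyl groups to a lysine of histone H4 that Kmt5a methylates first. Kmt5b levels were 18.4, 17.3, 23.2, 30.7 and 25.8 CPM in CTRL and 6.76, 5.95, 15.2, 5.84 and 8.49 CPM in ASO, and the log2 fold change was -1.44 (SE 0.30, adjusted p = 0.00375). The groups did not overlap, with ASO replicate 3 nearest to CTRL.

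Setd2, which methylates histone H3 along transcribed genes, and Setd6, which methylates the RelA subunit of NF-kB, moved in opposite directions. Setd2 levels were 55.7, 47.1, 57.8, 51.9 and 71.3 CPM in CTRL and 38.6, 32.7, 16.1, 30.5 and 29.2 CPM in ASO. The groups did not overlap and the log2 fold change was -0.95 (SE 0.21, adjusted p = 0.00554). Setd6 levels were 33.01, 41.04, 33.1, 34.8 and 32.02 CPM in CTRL and 46.4, 58.6, 60.1, 46.8 and 73.1 CPM in ASO. All ASO libraries were above all CTRL libraries, and the log2 fold change was 0.71 (SE 0.16, adjusted p = 0.00554). The distal Setd6 segment, with 53.7% of its counts, overlaps 77 bp of a segment of Cnot1 on the opposite strand.

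**Figure D2:**
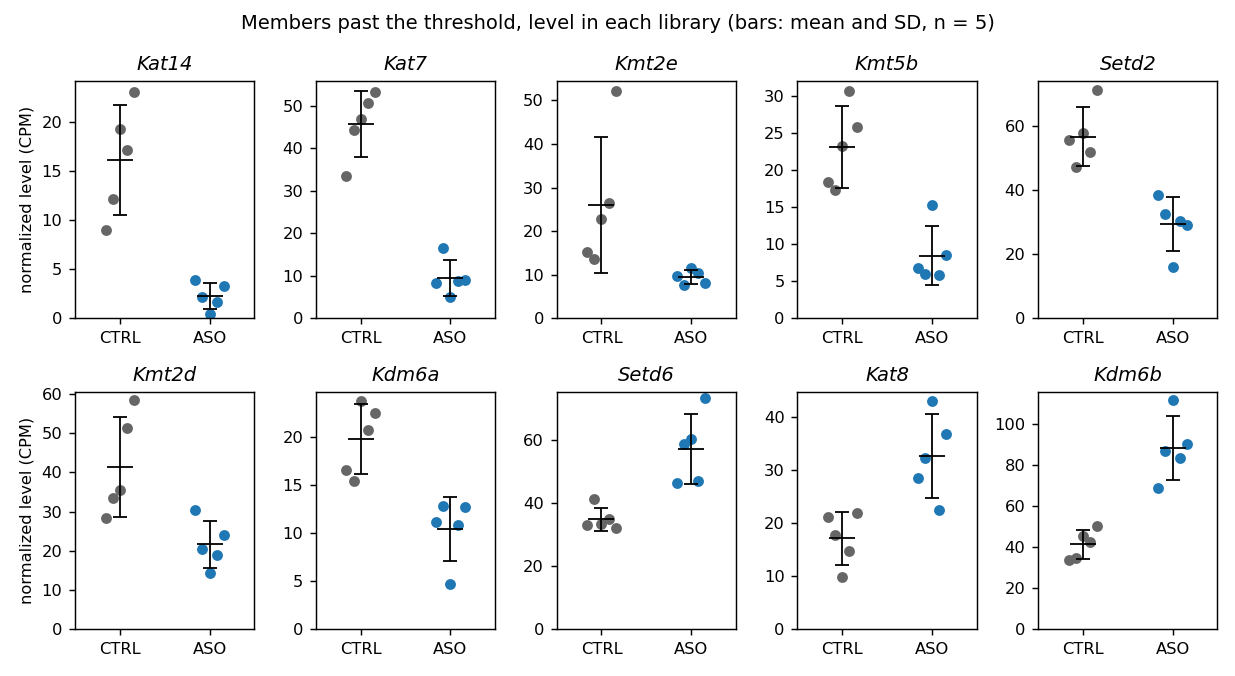
Level in each library (CPM, linear axis from 0) of the 10 members past the threshold, ordered from the lowest to the highest fold change. Points are libraries, grey for CTRL and blue for ASO, and bars give the mean and SD of 5 libraries, and the groups overlap only for Kmt2d.

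The lysine methyltransferases with the most counts did not pass. Kmt5a, which adds the first methyl group to histone H4, had levels of 456, 493, 391, 449.6 and 568 CPM in CTRL and 624, 471, 431, 349 and 571 CPM in ASO. Its groups overlapped throughout, and the log2 difference was 0.05 (95% interval -0.32 to 0.43, adjusted p = 0.839). Kmt2c, a relative of Kmt2d at enhancers, gave 96.7, 103, 73.1, 88.5 and 80.3 CPM in CTRL and 66.1, 82.8, 107, 68.5 and 61.8 CPM in ASO, with a log2 difference of -0.19 (95% interval -0.56 to 0.18, adjusted p = 0.426). Setd3 methylates a histidine of actin, and Setd7 methylates histone H3 and other proteins. Setd3 levels were 422, 437, 386, 449.6 and 440.4 CPM in CTRL and 484, 477, 352, 355 and 554 CPM in ASO, a log2 difference of 0.06 (95% interval -0.27 to 0.38, adjusted p = 0.794). Setd7 levels were 282, 452, 263, 323 and 347 CPM in CTRL and 507, 590.1, 383, 243 and 478 CPM in ASO, and the wide spread in both groups left a log2 difference of 0.40 (95% interval -0.09 to 0.90, adjusted p = 0.206). Setd1b, of the complexes that mark promoters, stood just outside the threshold at 0.63 (95% interval 0.12 to 1.14, adjusted p = 0.0596). Kmt5c, which acts with Kmt5b, differed by 0.17 with overlapping groups.

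None of the 5 tested arginine methyltransferases passed. Prmt1, which makes most asymmetric dimethylarginine, was at 229, 214, 202, 237 and 206 CPM in CTRL and 190.2, 181, 157, 183 and 141 CPM in ASO. The ASO libraries were all under the CTRL libraries, and the log2 difference of -0.35 (95% interval -0.62 to -0.08, adjusted p = 0.0503) missed the threshold by a small margin. Taken by segment in edgeR's test, only the mostly intronic Prmt1 segment 3404 bp upstream was lower, at -0.72 (adjusted p = 0.00254). Its segment 2709 bp upstream was at -0.009 and its most distal segment at 0.06, neither past the threshold. Groups that do not overlap occurred in 21.4% of all tested genes, and in 3 members above and 7 below. Prmt5, the main enzyme of symmetric dimethylarginine, was at 175, 186, 185, 186 and 189.9 CPM in CTRL and 178, 168, 149, 131 and 174 CPM in ASO, a log2 difference of -0.21 (95% interval -0.47 to 0.05, adjusted p = 0.215). The differences were 0.02 for the cytosolic Prmt3, 0.41 for Prmt7 and 0.36 for Prmt9, each with overlapping groups.

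A further 10 members had counts but too few to be tested, and 7 had none. Kmt2a (MLL1), which marks promoters of developmental genes, had 17, 9, 11, 11 and 31 counts in CTRL and 3, 11, 6, 1 and 6 in ASO. Without the filter on low counts its log2 fold change was -1.72 (SE 0.52, adjusted p = 0.0354 in edgeR's quasi-likelihood test). The others, Kat6b, Kdm3b, Kdm4b, Kdm4d, Prmt2, Prmt6, Setd1a, Setd4 and Setd5, had 7 to 93 counts over the 10 libraries, and none passed in that fit. Kat2a, Kat5, Kat6a, Kdm1a, Kdm4c, Kmt2b and Prmt8 had 0 counts, and for 5 of these every base of their segments lies in an overlap with another segment. Those 5 are therefore not measured here, whatever their level in GAS, and Kdm1a has only 4 bp of its own. Prmt8, with a segment of 500 bp that shares no base, was countable and gave no read in any library.

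Levels can be set against each other between genes only where the counted length is the same. The order given here is that of single most distal segments and not of summed gene levels. Of the members with a tested distal segment of 500 bp that shares no base with another, Setd7 had the highest mean CTRL level in CPM on the scale fitted to segments, at 331 ± 71.8 CPM (mean ± SD, n = 5). Kmt5a followed at 209.8 ± 30.9 CPM, then Setd3 at 148 ± 7.79 CPM and Prmt5 at 100.04 ± 11.9 CPM. The CTRL ranges of these 4 did not overlap with each other. Kat2b came next at 88.2 ± 18.7 CPM, with a CTRL range that overlapped with that of Prmt5. Kdm7a and Kdm6b were lower and their CTRL levels did not differ beyond their spread, at 43.6 ± 5.67 CPM and 41.1 ± 7.65 CPM. Kmt2c at 35.6 ± 7.49 CPM, Prmt3 at 35.4 ± 8.40 CPM and Kdm8 at 26.7 ± 6.34 CPM came after them. Setd1b, Kdm5c and Prmt1 were at 13.7 ± 3.98 CPM, 11.99 ± 3.44 CPM and 8.66 ± 1.15 CPM. Kdm5a and Kdm5d were at 5.93 ± 2.91 CPM and 1.83 ± 1.63 CPM. Below the filter were such segments of Kdm2a, with 7 counts over the 10 libraries, Kdm5b, with 4, and Prmt8, with 0. The ranked segments of Prmt1 and Kdm5d lie outside the canonical transcript and held 4.62% and 36.5% of their gene's counts. The Prmt1 segments 2709 and 3404 bp upstream had CTRL means of 101 and 107 CPM. For Setd3 and Kmt5a, the 500 bp segments 607 and 797 bp upstream had CTRL means of 274 and 219 CPM.

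Taking the segments of each gene apart showed that direction went with position. A total of 52 member segments were tested among 10652 segments of the table, each with its distance upstream of the gene's most distal segment end. Over all positions, 10 were higher and 21 lower, where the table as a whole had 16% higher and 24.7% lower. Of the 17 most distal segments 9 were higher and none was lower, beside 25.2% higher and 4.37% lower among all most distal segments. Those under 1000 bp upstream gave 2 lower of 12 and none higher, beside 21.6% lower and 12.1% higher. At least 1000 bp upstream, 19 of 23 were lower and 1 was higher, beside 53.7% lower and 5.43% higher over all such segments. The median log2 fold change of members in these positions was 0.50, -0.15 and -1.28, and that of all segments was 0.30, -0.18 and -0.86. The order from distal to upstream was thus present in the whole table, and the members followed it.

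**Figure D3:**
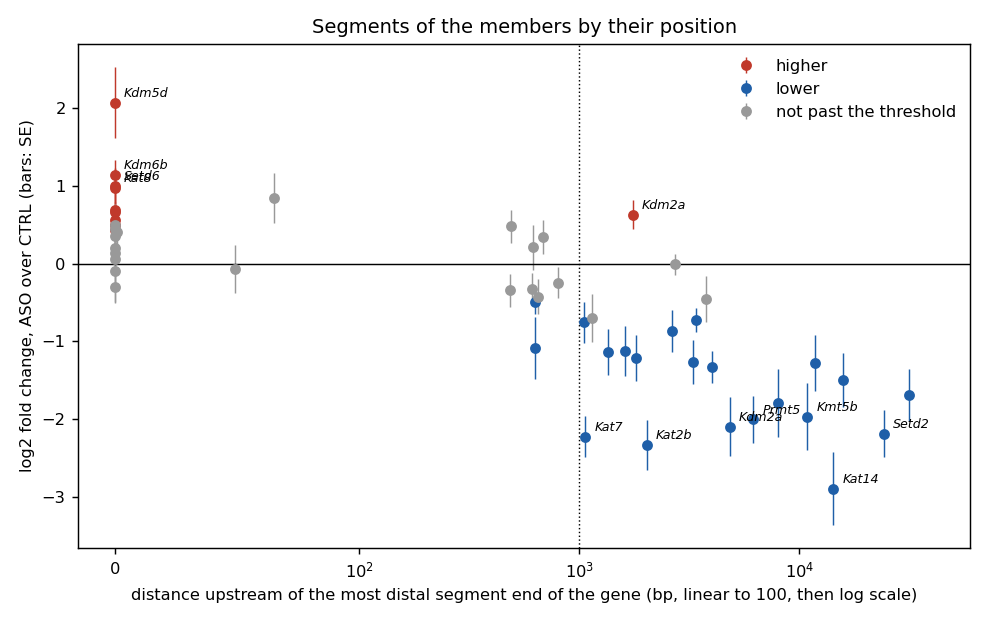
Log2 fold change of the 52 tested member segments (points, with SE bars) against their distance in bp upstream of the most distal segment end of the gene, on an axis that is linear to 100 bp and logarithmic beyond. Red points are higher, blue lower and grey not past the threshold, and the dotted line stands at 1000 bp, left of which lie all higher segments but that of Kdm2a.

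The position of the counts differed between the higher and the lower members. For Kat7, Kat14, Kdm6a, Kmt2e and Kmt5b all counts lay at least 1000 bp upstream, and for Kmt2d 91.0% did. For Kat8, Kdm6b and Setd6 none did. Setd2, the remaining lower member, had 34.6% of its counts there and 65.4% nearer to the end. Among all tested genes, 56.5% of the lower ones and 10.0% of the higher ones had at least 50% of their counts in such upstream segments. Of the 10 tested members with most counts upstream, 6 were lower and none was higher, where all tested genes of that kind gave 39.1% lower and 4.67% higher. Of the 23 other members 1 was lower and 3 were higher, beside 10.1% and 14.2% of the other genes. How much of these changes lies in the level of the gene and how much in the position of the reads was not tested.

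Several lower segments lie mostly in introns of the canonical transcript, where shorter annotated transcripts end. All 10 tested member segments of this kind were lower, beside 59.4% lower and 6.92% higher among all such segments. Segments wholly in introns, with no member among the 267 tested, were 12.4% lower and 12.7% higher. The Kat14 segment with 94.4% of the gene's counts, at chr2:144234823-144235322, is among the 10 mostly intronic ones, as is the tested segment of Kmt2e. Kat7 differs, since its counted segment at chr11:95166149-95166648 lies wholly in the last exon. The last 500 bp of Kat7 are shared by several transcripts and gave no counts, so its annotated end was not measured.

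Members with segments on both sides show the pattern within a single gene. Unequal change of segments, tested across all genes with edgeR's F test for segment use, was found in 12 of 14 members with at least 2 tested segments, beside 67.2% of 2272 genes. Prmt5 had the lowest p of the members (adjusted p = 7.52e-09). Its last-exon segment at chr14:54744644-54745143 had 105, 115, 104, 92.3 and 84.2 CPM in CTRL and 144, 129, 136, 115 and 148 CPM in ASO, a log2 fold change of 0.43 (SE 0.14, adjusted p = 0.0268). The mostly intronic segment 6186 bp upstream had 22.3, 23.8, 30.2, 35.8 and 40.1 CPM in CTRL and 10.7, 10.6, 4.45, 3.88 and 8.17 CPM in ASO, or 30.4 ± 7.64 CPM in CTRL and 7.56 ± 3.27 CPM in ASO (mean ± SD, n = 5 each, adjusted p = 0.000301). The segment between them, 4019 bp upstream, had a log2 fold change of -1.33 (SE 0.20, adjusted p = 0.000274). On the scale fitted to all segments, the end of Prmt5 was thus higher and both upstream segments lower, while the sum of the gene did not pass. Prmt3 had the same directions, with 0.56 at the end of the gene and -1.68 on the segment 31371 bp upstream (adjusted p = 9.80e-06 for unequal use). Neither the Prmt5 nor the Prmt3 end passed when distal segments were scaled alone, as given below.

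Kdm5d gave the widest split. Its distal segment had 4.18, 0.458, 0.494, 1.18 and 2.82 CPM in CTRL and 6.31, 8.09, 10.2, 6.90 and 7.69 CPM in ASO, a log2 fold change of 2.07 (SE 0.46, adjusted p = 0.00326). The segment 15740 bp upstream had 5.57, 10.1, 9.39, 11.8 and 14.7 CPM in CTRL and 2.91, 6.38, 3.56, 3.02 and 1.92 CPM in ASO, a log2 fold change of -1.49 (SE 0.35, adjusted p = 0.00473). The groups did not overlap on the distal segment, and the summed gene differed by -0.01. That distal segment lies outside the canonical transcript.

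Setd2 and Kdm2a had their largest falls in their upstream segments. The Setd2 segment 24208 bp upstream had 19.96, 16.9, 26.2, 25.9 and 37.9 CPM in CTRL and 7.28, 6.38, 2.67, 6.04 and 5.29 CPM in ASO, a log2 fold change of -2.18 (SE 0.30, adjusted p = 0.000157). Its segment near the end, 485 bp upstream, had 30.99 ± 3.84 CPM in CTRL and 24.4 ± 6.32 CPM in ASO and a log2 fold change of -0.34 (SE 0.21, adjusted p = 0.200), which did not pass. Of the 2 tested Setd2 segments only the far segment passed. Kdm2a changed by 0.63 at 1751 bp, -1.27 at 3287 bp and -2.09 at 4834 bp upstream (adjusted p = 9.17e-07 for unequal use). Kat2b fell by 2.33 on the log2 scale on its segment 2033 bp upstream and differed by 0.13 at its end. On the scale fitted to all segments, Kmt5a and Setd3 were higher at the end of the gene, by 0.50 and 0.66, beside sums of 0.05 and 0.06. Neither end passed when distal segments were scaled alone, as given below. Kmt5b and Setd6 were the 2 members for which unequal use did not pass, with adjusted p = 0.164 and 0.147.

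**Figure D4:**
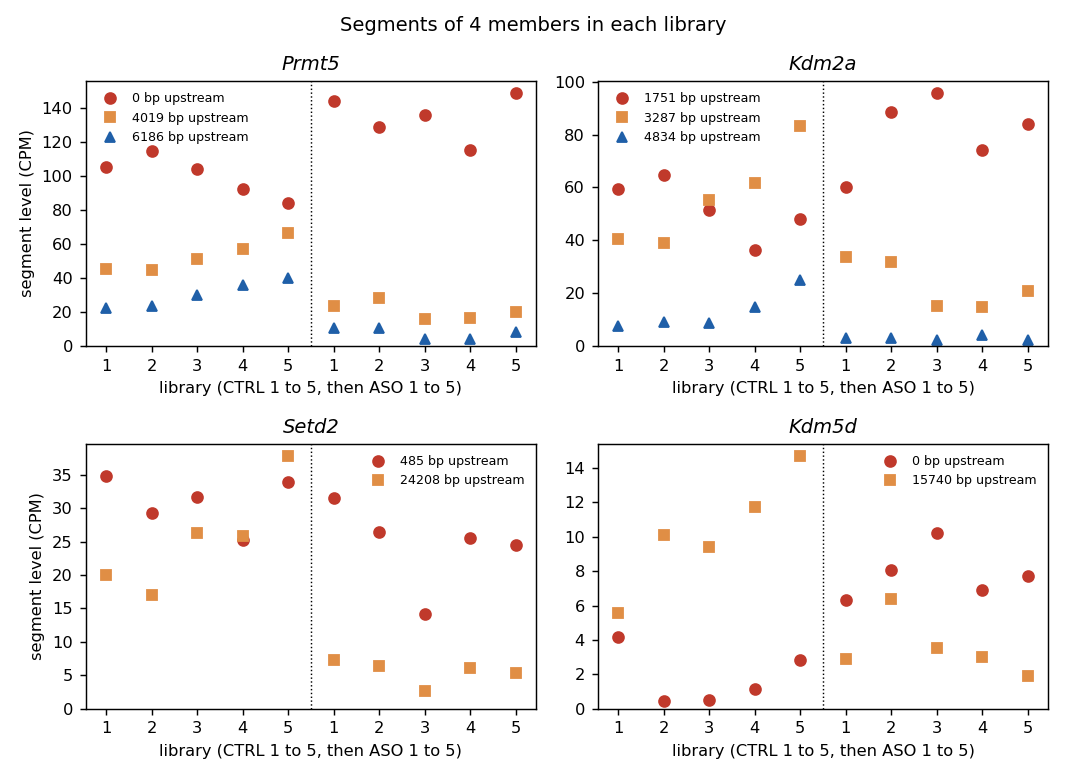
Segment level (CPM on the scale fitted to segments, linear axis from 0) in each library for Prmt5, Kdm2a, Setd2 and Kdm5d, with CTRL replicates 1 to 5 left and ASO replicates 1 to 5 right of the dotted line. Symbols are segments labelled by their distance upstream in bp, and the far segments of Prmt5, Kdm2a and Setd2 are lower in every ASO library than in every CTRL library.

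With only the most distal counted segment of each gene, scaled on its own, the calls were fewer. In this fit of 6075 genes, 24 members were tested, and 6.39% of genes were higher and 9.91% lower. Kdm5d at 1.80 (adjusted p = 0.0184), Kdm6b at 0.85 (adjusted p = 0.00705) and Setd6 at 0.72 (adjusted p = 0.0279) were higher. Kat7 at -2.48 (adjusted p = 0.000347), Kmt5b at -1.40 (adjusted p = 0.00765) and Kdm6a at -1.01 (adjusted p = 0.0282) were lower, and in these 3 even the most distal counted segment lies at least 1000 bp upstream of the annotated end. Among the 17 members counted at the annotated end itself, 3 were higher and none was lower. Kat8 gave 0.70 (adjusted p = 0.0563), Setd3 0.39 (adjusted p = 0.0629) and Setd1b 0.41 (adjusted p = 0.242). Prmt3 gave 0.29 (adjusted p = 0.279), Kmt5a 0.23 (adjusted p = 0.375) and Prmt5 0.16 (adjusted p = 0.423). The distal segments of these genes were higher when scaled with all segments, and did not pass when scaled alone. Kdm6b and Setd6 were higher in both fits. Kdm6b, Kat7 and Kat8 have 1 counted segment each, so both fits use the same counts for them. For these members the distal fit is a change of scaling and no check of position.

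Seed matches occurred in members that changed and in members that did not. The 7 letters of the match occur in the canonical 3′UTR of 13 of the 50 members (26.0%) and of 9 of the 33 tested (27.3%), beside 17.8% of 7738 tested genes and 17.5% of 3476 tested genes with 3′UTRs in the members' middle length range. Members with a match were Kat5, Kat6a, Kat6b, Kat7, Kdm2a, Kdm3a, Kdm5a, Kdm5c, Kdm6b, Kdm7a, Kdm8, Prmt6 and Prmt7. Of the 9 tested ones Kdm6b was higher and Kat7 lower, and of the 1379 tested genes with a match 166 were higher and 262 lower. The median log2 fold change was -0.05 with a match and -0.15 without among members, and -0.03 in both sets among all genes. In the genes of like 3′UTR length it was -0.02 with a match and -0.10 without. The 2 matches inside counted segments are the printed ones of Kat6b and Prmt6, whose counts were too few to test. A match is a description of letters and does not show that the site is used, and miR-22 itself is not measured by these mRNA counts.

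With TMM scaling, related enzymes and partners fell more often than they rose, but not with upper-quartile scaling, and all tested genes also had more lower than higher calls. Of 141 genes in 9 lists, 93 were tested, with 14 higher, 27 lower and a median log2 fold change of -0.23, beside the 11.8% higher and 17.4% lower of all tested genes, which is also the background of each list. Total counts gave 3 higher and 32 lower, and upper-quartile scaling gave 23 higher and 22 lower. The median of all genes was -0.03 with TMM, -0.21 with total counts and 0.06 with upper quartile. Of the lower genes, 18 of 27 had at least 50% of their counts at least 1000 bp upstream, against 1 of the 14 higher ones. On the most distal counted segment alone, where fewer genes were tested, fewer related genes passed in either direction. For the single genes named below, how much of the change lies in gene level and how much in the position of the reads was not tested.

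The polycomb repressive complex 2, which places the mark that Kdm6a and Kdm6b remove, had 4 lower and no higher genes of 8 tested. Suz12, a core subunit, had 27.1 ± 12.3 CPM in CTRL and 4.84 ± 2.13 CPM in ASO (mean ± SD, n = 5 each) and a log2 fold change of -2.46 (SE 0.38, adjusted p = 0.000769). Aebp2 and Jarid2, which bind or recruit the core, were at -1.21 and -0.61, and Rbbp7 was at -0.48. The catalytic Ezh2 differed by -0.89 (adjusted p = 0.0710), Phf1 by -0.70, Eed by 0.05 and Mtf2 by 0.02, none past the threshold.

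Among 12 other histone methyltransferases 5 rose and 2 fell. Smyd1, a methyltransferase of striated muscle needed for sarcomere assembly, had 229 ± 53.5 CPM in CTRL and 67.7 ± 23.1 CPM in ASO, a log2 fold change of -1.75 (SE 0.24, adjusted p = 0.000458). Prdm2, Ehmt2, Smyd2 and Nsd1 rose by 1.14, 0.71, 0.70 and 0.43, as did Dot1l, while Ehmt1, the partner of Ehmt2, was at -0.81. Of 5 other JmjC demethylases only Phf2 passed, at 0.48.

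Of 7 other acetyltransferases, Ncoa2, a nuclear receptor coactivator, was at -2.13 and Taf1, of the TFIID complex, at -0.93, both lower. Ep300 (p300) rose by 0.70, and its relative Crebbp (CBP) differed by 0.53 with adjusted p = 0.0602. Among 10 deacetylases, the class II enzyme Hdac5 rose by 0.79 and Hdac10 by 0.61, whereas Hdac11 was lower at -1.05. Hdac1, Hdac2, Hdac3, Hdac4, Hdac7, Hdac8 and Sirt7 did not pass, with differences from -0.72 to 0.52.

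Partners of the members gave further falls. Of 9 partners of KMT2 enzymes, Hcfc2, Rbbp5 and Wdr5 were lower and Wdr82 and Cxxc1 higher, from -0.89 to 0.57. Of 28 partners of KAT enzymes 6 were lower and 2 higher. The lower ones were led by Msl2 at -1.27, Morf4l1 at -1.42, Kansl3 at -1.27 and Tada2b at -0.63, and the higher ones were Tada2a at 0.48 and Brd1 at 0.46. Msl2 and Kansl3 belong to the complexes of Kat8. Other subunits of these complexes did not pass, with Kansl2 at 0.71 (adjusted p = 0.0511), Msl1 at 0.11 and Kansl1 at -0.33. Of 9 partners of KDM1, KDM2 and PRMT enzymes 6 were lower and 1 higher. Wdr77, the obligate partner of Prmt5, was at -1.08 (SE 0.17, adjusted p = 0.000798), Rcor3 at -0.89, Rcor1 at -0.85 and Skp1 at -0.65, and Coprs was at 0.98. Of 5 genes of donor supply, Mat2b and Mat2a, which make the methyl donor S-adenosylmethionine, were at -1.34 (SE 0.19, adjusted p = 0.000467) and -0.79 (SE 0.25, adjusted p = 0.0299), and Acss2, which makes acetyl-CoA from acetate, was at -0.71.

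**Figure D5:**
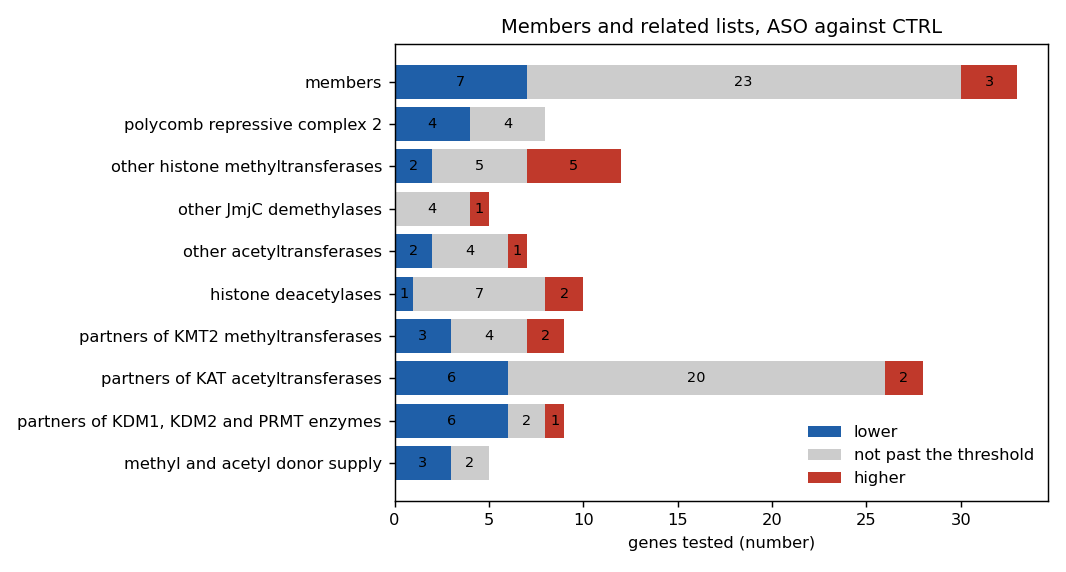
Number of tested genes lower (blue), not past the threshold (grey) and higher (red) in ASO against CTRL for the members and for 9 lists of related genes. Bars start at 0 and the numbers stand in each part, with 7 lower and 3 higher among the members.

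Marker genes of muscle fibers and of other cell types were read in the same libraries. The summed level of 12 muscle fiber genes was 40612 to 79777 CPM in CTRL and 84920 to 130034 CPM in ASO. Of the 5 tested 2 were higher (Ckm and Actn3). Mb, Mylpf and Tnnt3 were at 0 counts, and Myh1, Myh2, Myh4 and Tnni2 had too few to be tested. Most of the sum was Acta1 and Ckm. Acta1 had mean levels of 39783 CPM in CTRL and 59136 CPM in ASO and did not pass (edgeR adjusted p = 0.0585). Ckm had 19251 and 36672 CPM. That of 8 macrophage genes was 261 to 1609 CPM in CTRL (median 539) and 74.0 to 575 CPM in ASO (median 369). Of the 6 tested 1 was lower, and Adgre1 and Cd163 were at 0. For 5 satellite cell genes it was 91.9 to 172 and 144 to 336 CPM, with 1 of 2 tested higher and Calcr and Chrdl2 at 0. For 6 fibroblast genes it was 374 to 1681 CPM in CTRL (median 585) and 139.6 to 613 CPM in ASO (median 386). Of the 4 tested 1 was lower, and Dcn was at 0. CTRL replicate 3 had the highest CTRL level of every tested macrophage and fibroblast gene. It was at 843 CPM for Lyz2 and 1341 CPM for Dpt, where the next CTRL libraries were at 305 and 510 CPM. None of the tested endothelial, Schwann cell, adipocyte or blood genes passed, with summed CTRL and ASO ranges that overlapped. The part of these marker differences in the members' changes was not tested.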

How the data were processed

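RNA extracted from GAS, 500 ng per sample with a RIN of at least 7, was made into stranded mRNA libraries and sequenced. The authors used fastp for trimming, STAR for alignment to GRCm39 and featureCounts for read pairs on GENCODE M25 (versions of STAR and featureCounts are not given in the sources used here), counting only the last 500 bp of transcripts, and deposited the counts unnormalized. The options they state hold none for strand. Of 52423 segments, 52361 were found in GENCODE M39 on GRCm39 with the same chromosome and strand, and the other 62 held 0.0197% of the counts. Segment lengths and starts are the authors' deposited values. Another 4 per-sample columns were not used.

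Counts of each gene were summed over segments and tested over all genes with edgeR 4.0.16 in R 4.3.3 (TMM, filterByExpr by group, quasi-likelihood test, Benjamini-Hochberg adjustment at 0.05). CPM are computed on TMM-scaled library sizes, errors are SDs over 5 libraries, and intervals are 95%. Segment use was tested with edgeR's diffSpliceDGE, and segments singly in the same fit. The index uses segments at least 1000 bp apart with at least 200 bp of their own, genes with at least 50 counts on each side, and 0.5 added to each count. Seed matches were sought in 3′UTRs of canonical GENCODE M39 transcripts. The functions for the gene and segment tests were run on simulated counts with known changes. The index, position, overlap and seed steps were not tested in this way.

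Library totals were 1606909 to 2632560 counts on the segments, and these totals limit members with few counts. No 2 libraries of a group were alike within sampling noise, with a chi-square per degree of freedom of at least 5.72. The labels do not say that each library is a mouse of its own, so p-values measure the spread between these libraries. Alternatives were other scalings and filters, DESeq2 1.42.0 (the authors' tool), limma-voom in limma 3.58.1, a replicate block, thinning, leaving out each library, and the most distal segment alone. The members, lists and tests were chosen with earlier results of these data known, and the classes of position and place were set after segment values were seen. Named in full are the members past the threshold and, in each family, the 2 with the highest mean CPM that did not pass. From each related list, up to 4 genes past the threshold in each direction are named.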

Additional observations from a re-analysis of the deposited data

Results flagged for a closer look

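In 5 of 68 groups of 5 libraries, 1 library lay far from the other 4 by Dixon's criterion, where chance gives about 1 in 20. Kdm2a was at 156 CPM in CTRL replicate 5, with the next library at 116. Kdm5d was at 18.5 CPM in CTRL replicate 5, with the next at 13.6. Kdm5c was at 14.1 CPM in ASO replicate 5, with the next at 22.7. ASO replicate 3 stood apart for Kdm6a, at 4.65 CPM with the next at 10.9, and for Kmt5b, at 15.2 CPM with the next at 8.49. CTRL replicate 5 also had the lowest distal-over-proximal index, -0.58, and ASO replicate 3 the highest, 1.77.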

How the results depend on the processing

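The 10 called members kept direction and call in 193 refits, among them every fit that left out 1 library, and lost the call in 2, namely Kat8 on its most distal segment alone (0.70, adjusted p = 0.0563) and Kdm6a with the replicate block (-0.95, adjusted p = 0.0555). Kat14, Kmt2d, Kmt2e and Setd2 gave no value on their most distal counted segment, which had too few counts, so these calls were not examined there. Members higher were 3 or 4 throughout. Members lower, 7 in the report, were 11 with total counts and 3 on the most distal segment alone, and 7 to 10 when 1 library was left out. Related modifiers higher, 14, were 3 with total counts, 23 with upper quartile, 6 with the replicate block and 6 on the most distal segment, and 7 to 17 when 1 library was left out (8 without CTRL replicate 1, 3 or 4, and 7 without CTRL replicate 5 or ASO replicate 3 or 5). Related modifiers lower, 27, were 7 on the most distal segment and 20 to 27 when 1 library was left out. Members with unequal segment use, 12, were 6 with segments of at least 10 counts in every library, where fewer segments were tested, 9 by Simes p, and 12 to 13 when 1 library was left out. Kdm5d reversed from -0.01 to 1.80 on its distal segment (adjusted p = 0.0184). For all genes the split was 920 higher and 1363 lower with TMM, 528 and 1819 with total counts, and 1262 and 1206 with upper quartile. On the most distal segment fewer genes were tested, and otherwise the cause was not tested. Beside Kdm5d, members outside the threshold passed it in 18 refits, among them Prmt1 with DESeq2 (adjusted p = 0.0394) and limma-voom (0.0427), Setd1b with DESeq2 (0.0440), without CTRL replicate 4 (0.0409) and without ASO replicate 2 (0.0470), Kdm2b without CTRL replicate 2 (0.0318) or 5 (0.0399), and Setd7 without ASO replicate 4 (0.0377).

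The replicate numbers are shared by both groups, but same-numbered libraries did not deviate together (correlations -0.43, 0.057, 0.052, 0.060 and 0.16 for replicates 1 to 5), and not every library correlated best with its own number. With the replicate block, members higher were 3, lower 6 and with unequal segment use 12, and related modifiers lower were 21.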
